A study of Mus musculus with 3 samples.

Results

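The genes described here are 9 markers of endothelial cells, the cells that line blood and lymph vessels: Pecam1, Plvap, Vwf, Emcn, Esam, Egfl7, Robo4, Mcam and Prox1. They were chosen by symbol from the 21881 gene symbols measured, and each was found as 1 row with a usable status in every tumour. RNA was sequenced from 3 mammary tumours of a single group, labelled NDL(UCD), a mammary cancer line that serves as a syngeneic ErbB2 model. Cells of the line were grown in culture and injected into uncleared mammary fat pads, which keep their own epithelium and vessels, of FVB/NJ females that were 6 to 8 weeks old (the strain label reads FVB/N). Each tumour grew in a different mouse, was taken at a maximum width of 5 to 10 mm and was snap-frozen. There is no normal gland or other tumour group. Levels were therefore compared between genes within a tumour and between the 3 tumours, which share 1 line. FPKM, the unit of all levels, divides a gene's fragments by its length and by the size of the library, and ± marks the SD (n = 3 tumours). Because whole tumour pieces were sequenced, fewer endothelial cells and less RNA per endothelial cell cannot be told apart.

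Endothelial cells hold to each other through adhesion molecules at their junctions, carry sialomucins and fenestral proteins on the surface that faces the blood, and store von Willebrand factor for clotting. Vessels entering a tumour are known to arise largely from the host, and tumour vessels are often leaky and rich in the fenestral protein Plvap. Lymphatic vessels form a separate lineage that is set by the transcription factor Prox1.

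All 9 genes had fragments in all 3 tumours, and their levels ran from 9.10 ± 3.01 FPKM for Mcam to 0.0204 ± 0.0142 FPKM for Prox1. Mcam, Plvap, Pecam1, Egfl7, Esam and Emcn were above 1 FPKM, whereas Robo4, Vwf and Prox1 were below that level (limma, adjusted p under 0.05 by Benjamini and Hochberg's method over 18028 symbols). The 6 of 9 above compare with 54.2% of all tested symbols called above that level, and the 3 of 9 below with 32.5% called below. The median of the 9 means was 2.91 FPKM, beside a median of 2.44 FPKM over all symbols tested. A level of 1 FPKM is a convention and marks no biological boundary. Levels did not follow one grouping by function. The secreted Egfl7 lay above the junction gene Esam and the surface gene Emcn, and the receptor Robo4 was below 1 FPKM. The stored clotting factor and the lymphatic regulator were the lowest.

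**Figure D1:**
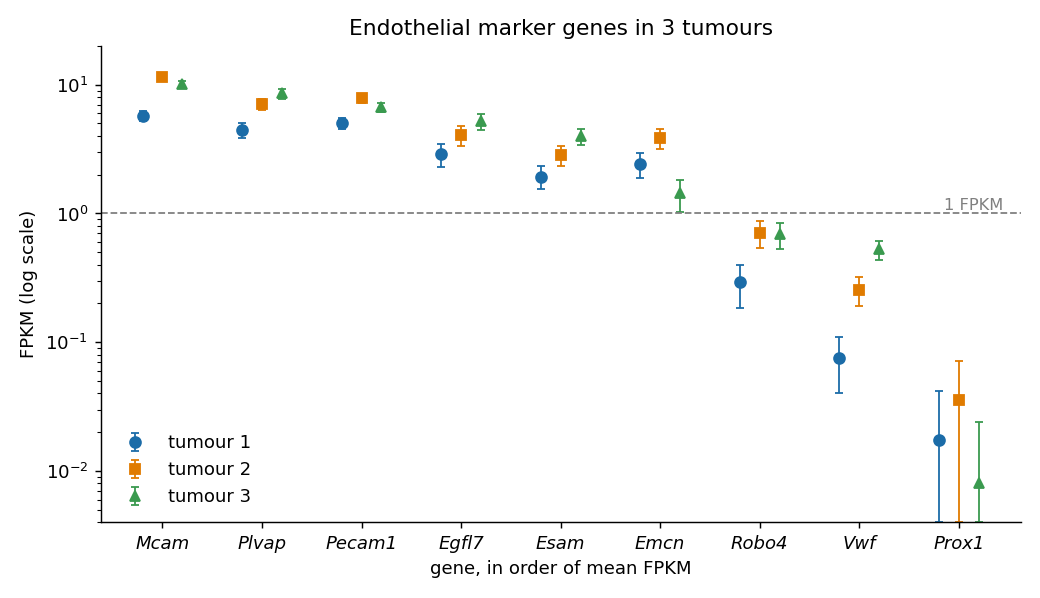
FPKM (log axis) of each gene in tumours 1, 2 and 3, with the deposited interval of each value as a bar; the dashed line is at 1 FPKM and bars that reach 0 are drawn to the foot of the axis. The 6 genes from Mcam to Emcn lie above the line in every tumour, the 3 genes from Robo4 to Prox1 below it, and tumour 1 is the lowest for 7 of the 9 genes.

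Mcam, Pecam1 and Esam belong to cell junctions. Mcam, an adhesion molecule of the immunoglobulin superfamily found on endothelial cells, pericytes and some epithelial cells, was the highest (mm9 chromosome 9, 43942741 to 43950809). Its level was 5.72, 11.5 and 10.1 FPKM in tumours 1, 2 and 3, from 453, 877 and 853 fragments implied by the deposited intervals. Tumour 1 was the low value, and its deposited interval did not overlap those of tumours 2 and 3. Mcam was 3.00 log2 units above 1 FPKM (limma SE 0.27, adjusted p = 6.5e-06).

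Pecam1, or CD31, an adhesion molecule of endothelial junctions that leukocytes and platelets also carry, was at 5.02, 7.83 and 6.66 FPKM in tumours 1, 2 and 3, a mean of 6.50 ± 1.41 FPKM (mm9 chromosome 11, 106515532 to 106576595). As deposited, it had the smallest spread of the 9 genes, with a coefficient of variation of 21.7%. With trends of GC content and length removed, as described below, Plvap varied less (6.45 ± 0.10 FPKM) than Pecam1 (6.42 ± 0.71 FPKM). Pecam1 was 2.56 log2 units above 1 FPKM (SE 0.25, limma adjusted p = 1.0e-05).

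Esam, an endothelial and platelet adhesion molecule of tight junctions, was at 1.93, 2.82 and 3.97 FPKM in tumours 1, 2 and 3, with a mean of 2.91 ± 1.02 FPKM (mm9 chromosome 9, 37335674 to 37345904). The deposited intervals of tumours 1 and 3 did not overlap, and tumour 2 lay between them. Its level was 1.40 log2 units above 1 FPKM (SE 0.28, limma adjusted p = 0.0014).

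Plvap and Emcn, of the surface that faces the blood, were both above 1 FPKM. Plvap, which forms the diaphragms of fenestrae and caveolae, was at 4.46, 7.05 and 8.57 FPKM in tumours 1, 2 and 3 (mean 6.69 ± 2.08 FPKM; mm9 chromosome 8, 74021652 to 74035668; limma adjusted p = 1.7e-05). Emcn, a sialomucin of capillary and venous endothelium, was at 2.42, 3.82 and 1.43 FPKM (mean 2.56 ± 1.20 FPKM; mm9 chromosome 3, 137004042 to 137094033). Emcn had another order over the tumours than Plvap, with tumour 3 the lowest and not the highest. It was 1.17 log2 units above 1 FPKM (SE 0.31, limma adjusted p = 0.0067). That call rested on tumour 2, since the adjusted p was 0.16 without it.

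Of the secreted products, Egfl7 was above 1 FPKM and Vwf below. Egfl7, a matrix-bound protein that endothelial cells release, was at 2.89, 4.07 and 5.19 FPKM in tumours 1, 2 and 3 (mean 4.05 ± 1.15 FPKM; mm9 chromosome 2, 26436576 to 26448202; limma adjusted p = 1.4e-04). It was the only member with 3 annotated start sites in the files, the other 8 having 1. Vwf, the von Willebrand factor that endothelial cells and megakaryocytes store and release, was at 0.0749, 0.254 and 0.526 FPKM (mean 0.285 ± 0.227 FPKM; mm9 chromosome 6, 125502981 to 125636695). These values rested on 19, 62 and 143 implied fragments over a transcript of 8834 bases, and no 2 of the 3 deposited intervals overlapped. Vwf was below 1 FPKM in every tumour (log2 difference -1.70, SE 0.38, limma adjusted p = 0.0026).

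Egfl7 is known as the host gene of miR-126, a microRNA abundant in endothelial cells, so the sequence it carries is shown. The mature strand is given with the seed, bases 2 to 8, in capitals, and the hairpin with the mature strand in capitals, both from RefSeq on GRCm38.p6.
mmu-miR-126a-3p: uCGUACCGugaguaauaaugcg
mir-126a hairpin: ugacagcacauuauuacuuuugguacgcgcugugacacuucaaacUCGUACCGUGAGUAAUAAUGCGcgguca
In GENCODE vM21 the hairpin lay inside Egfl7 on the same strand, outside the exons of its protein-coding transcripts but over an exon of another transcript. The files hold it as Mir126, a row of 73 bp at mm9 chromosome 2, 26446877 to 26446949, the only other row that overlapped any of the 9 genes. Mir126 was listed at 0 FPKM in all 3 tumours, while Egfl7 had 95, 128 and 182 implied fragments. Libraries of this kind are not made to capture microRNAs, so the 0 gives no upper limit for miR-126.

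Robo4, the endothelial member of the Roundabout receptors, which stabilises vessels, was at 0.292, 0.709 and 0.691 FPKM in tumours 1, 2 and 3 (mean 0.564 ± 0.235 FPKM; mm9 chromosome 9, 37209631 to 37221607). Tumour 1 was the low value, and its deposited interval lay below those of tumours 2 and 3. Robo4 lay under 1 FPKM by -0.80 log2 units (SE 0.32, limma adjusted p = 0.043), the weakest call of the 9. Without tumour 1 the difference was -0.46 (adjusted p = 0.17 by limma), and without tumour 2 it was -0.98 (adjusted p = 0.077), as large as before but no longer called. Robo4 and Esam are 114066 bp apart on chromosome 9 with 2 gene rows, Robo3 and BC024479, between them. Esam exceeded Robo4 in all 3 tumours, by 2.20 ± 0.30 units of log2(FPKM + 0.1).

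Prox1, the regulator of lymphatic identity, lies at 191945658 to 191994559 on mm9 chromosome 1 and was at 0.0173, 0.0359 and 0.00806 FPKM in tumours 1, 2 and 3. These values stand for 2, 4 and 1 implied fragments, and all 3 deposited intervals reach down to 0, so no difference between tumours was detectable at this depth. Prox1 was below 1 FPKM in all 3 tumours (log2 difference -3.20 with a pseudocount of 0.1, SE 0.16, limma adjusted p = 1.8e-07).

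Within a tumour the order of the genes was largely the same. Of the 36 pairs of members, 34 had the same gene higher in all 3 tumours, and for 27 pairs the lowest value of one gene exceeded the highest value of the other. The means of the 9 genes ran from 9.10 to 0.0204 FPKM, and pairs of other symbols were not counted. These counts therefore have no background share and describe the 9 genes only. Differences between genes are given here in units of log2(FPKM + 0.1), which makes those of the low genes smaller. The exceptions to one order were Plvap against Pecam1, which differed by 0.01 ± 0.30 log2 units, and Esam against Emcn, at 0.23 ± 1.03. Of the 8 pairs of neighbours in the order of means, 6 kept one direction. Mcam exceeded Plvap by 0.43 ± 0.24, Pecam1 exceeded Egfl7 by 0.69 ± 0.30, and Egfl7 exceeded Esam by 0.48 ± 0.09 log2 units. Emcn exceeded Robo4 by 1.97 ± 0.91 log2 units, the values of these 2 genes not overlapping over tumours. Vwf and Prox1 did not overlap over tumours either. With 3 tumours the exact two-sided sign-flip permutation test cannot go below p = 0.25, which was the value of all 6 one-direction neighbour pairs (0.33 after Benjamini-Hochberg adjustment over the 8 pairs), and p was 1.00 for the other 2.

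Tumour 1 had the lowest value for 7 of the 9 genes, all but Emcn and Prox1, and the highest for none. Over the 14080 symbols that averaged 0.1 FPKM or more, 56.5% were lowest in tumour 1, 12.8% in tumour 2 and 30.7% in tumour 3, and 28.8% were highest in tumour 1. Of the 8 members in that range, 7 were lowest in tumour 1 and Emcn in tumour 3. The highest value was in tumour 2 for 4 of them (24.9% of all) and in tumour 3 for 4 (46.3% of all). Prox1, outside that range, was listed highest in tumour 2 and lowest in tumour 3. The median member was 0.64 log2 units higher in tumour 2 and 0.82 higher in tumour 3 than in tumour 1, while the median over all symbols was 0.26 and 0.35 higher. With median-of-ratios scaling, which removes that common shift, the members' medians were 0.33 and 0.46, beside -0.04 and -0.0002 over all symbols. The same 7 genes were lowest in tumour 1, but the share of all symbols was not counted under that scaling. With trends of GC content and length removed, as described below, the members' medians were 0.25 and 0.05, and 4 of the 9 genes were lowest in tumour 1. Between tumours 3 and 2 the median member differed by -0.03 log2 units. There 4 members were higher in tumour 3, from Plvap (0.28) to Vwf (0.82), and 5 were lower, from Robo4 (-0.03) to Emcn (-1.36).

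By Cochran's Q on the deposited intervals, 8 of the 8 members that averaged 0.1 FPKM or more differed between tumours, with an adjusted p under 0.05 and a ratio of at least 1.5. That test covers counting error only, and it called 65.9% of all 14080 symbols, so a call is common in these data. Prox1 was under the minimum and was not tested. The ratio of the highest to the lowest tumour was 7.02 for Vwf, 2.67 for Emcn and 2.42 for Robo4, and lay between 1.56 for Pecam1 and 2.05 for Esam for the other 5. Without tumour 1 only Emcn and Vwf were called, beside 22.4% of all symbols.

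The tumours also differed by the base composition of transcripts, which moves with these results. Among 10845 genes, those with a GC content of 41.5% lay 0.54 log2 units above their mean over tumours in tumour 1 and -0.47 from it in tumour 3, by a smoothed trend. At a GC content of 57.5% the values were -0.45 and 0.33. The transcript of Emcn has a GC content of 40.7% and that of Prox1 45.3%, whereas the other 7 range from 50.2% for Pecam1 to 60.6% for Plvap. Emcn and Prox1 are the members poorest in GC and the members that were not lowest in tumour 1. The order of Prox1, however, rests on 2, 4 and 1 implied fragments in tumours 1, 2 and 3. Prox1 was also still listed lowest in tumour 3 after the removal of trends described below. Whether GC content sets the order of either gene was not tested.

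**Figure D2:**
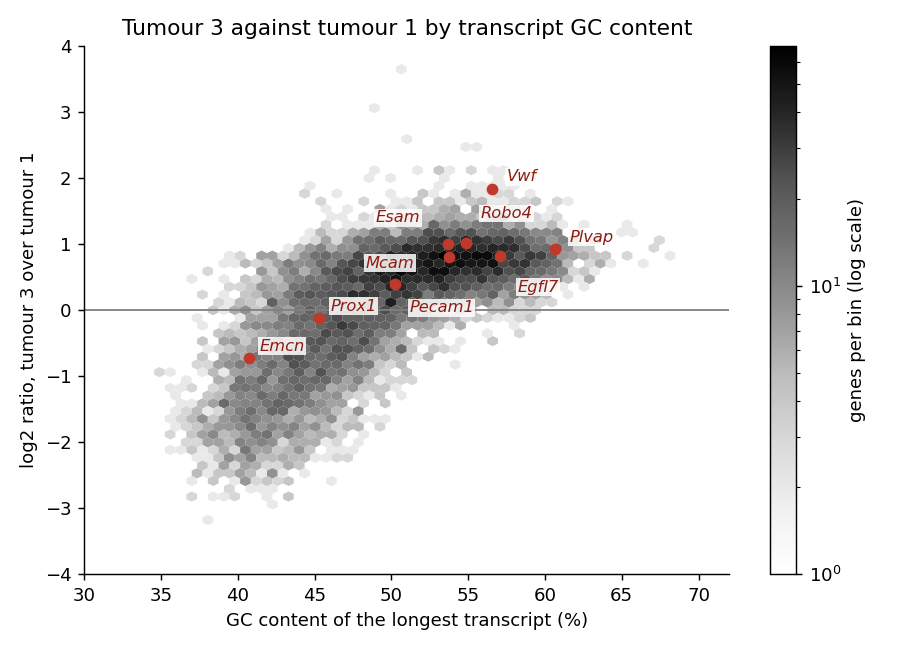
Log2 ratio of tumour 3 over tumour 1 against the GC content of the longest transcript, for 10845 genes as shaded bins (values beyond the axes are not drawn) and the 9 endothelial genes as red points. The cloud runs from below 0 on the left to above 0 on the right; Emcn at 40.7% lies below 0, and Vwf at 56.5% lies above most genes of its GC content.

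When the trends with GC content and length were removed from each tumour, the members split into those that became level and those that did not. Plvap came to 6.45, 6.35 and 6.55 FPKM in tumours 1, 2 and 3, a ratio of 1.03 in place of 1.92. Egfl7 came to 4.14, 3.70 and 3.98 FPKM and Esam to 2.70, 2.56 and 3.13 FPKM. None of these 3 genes passed the Q test then (adjusted p = 0.91, 0.71 and 0.21). Pecam1 came to 6.09, 7.24 and 5.94 FPKM and Mcam to 7.80, 10.5 and 8.06 FPKM, with adjusted p under 0.05 but ratios of 1.22 and 1.35, under the required 1.5.

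Vwf, Emcn and Robo4 were still called, 3 of 8 members beside 41.7% of all symbols. Vwf remained lowest in tumour 1 and highest in tumour 3, at 0.0932, 0.251 and 0.433 FPKM, a ratio of 4.64. Emcn was at 1.58, 4.04 and 2.05 FPKM, so that tumour 2 stayed the highest (ratio 2.56) and the lowest tumour changed from 3 to 1. Robo4 was at 0.376, 0.662 and 0.577 FPKM (ratio 1.76, adjusted p = 0.023). After removal 4, 3 and 1 of the 8 members were lowest in tumours 1, 2 and 3, beside 38.2%, 26.4% and 35.4% of all symbols. The highest value was then in tumour 1 for 1 member, in tumour 2 for 4 and in tumour 3 for 3, beside 37%, 25.6% and 37.3% of all symbols. Any biological difference that follows GC content is removed by this step too.

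**Figure D3:**
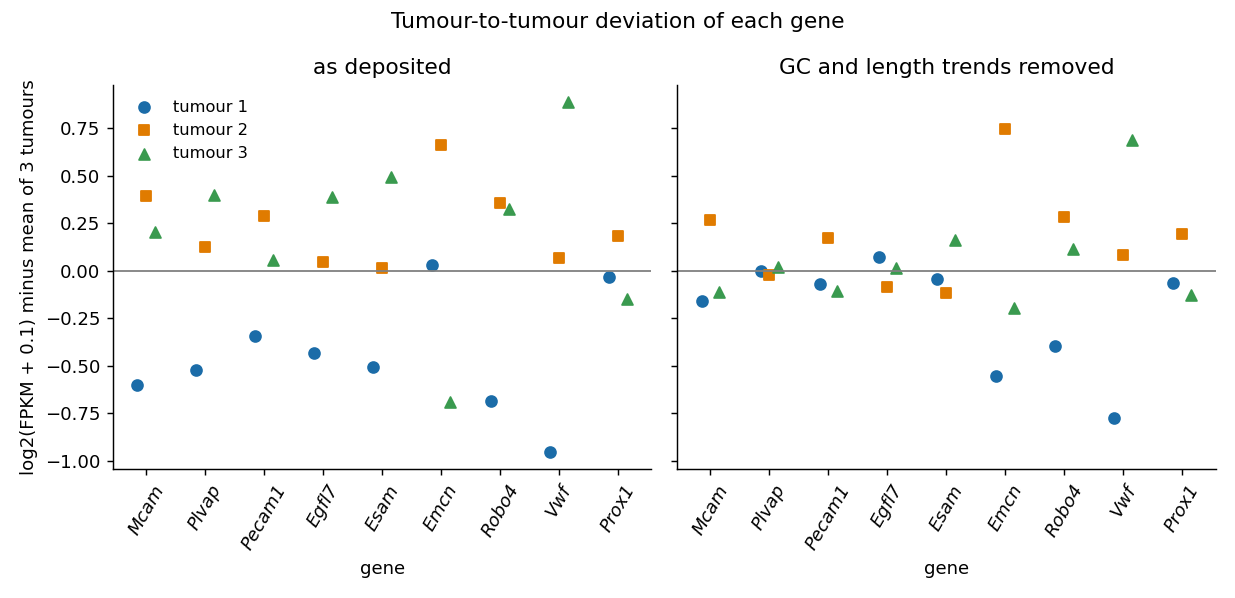
Each gene's log2(FPKM + 0.1) in tumours 1, 2 and 3 minus its mean over the 3 tumours, as deposited (left) and with GC and length trends removed (right). On the left tumour 1 lies lowest for 7 genes; on the right Plvap, Egfl7 and Esam lie close to 0 in all tumours, while Vwf spreads from tumour 1 to tumour 3 and Emcn stays highest in tumour 2.

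Promoter sequences were available for 5 of the 9 genes, and 3 are shown because these genes differ in level and in how they varied: Mcam, the highest, Robo4, below 1 FPKM and lowest in tumour 1 like Mcam, and Emcn, which had another low tumour. Each is the 250 bases before the RefSeq start on GRCm38.p6, plus strand, a build other than the mm9 of the files, and AGGAAG, a form of the GGAA core known to be bound by ETS factors of endothelial cells, is in capitals on either strand.
Mcam promoter, chr9:44134408-44134657: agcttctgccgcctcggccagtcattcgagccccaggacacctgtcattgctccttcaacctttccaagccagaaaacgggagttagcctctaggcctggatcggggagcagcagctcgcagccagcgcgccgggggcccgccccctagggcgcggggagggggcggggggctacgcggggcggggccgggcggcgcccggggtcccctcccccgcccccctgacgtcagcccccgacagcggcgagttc
Robo4 promoter, chr9:37401722-37401971: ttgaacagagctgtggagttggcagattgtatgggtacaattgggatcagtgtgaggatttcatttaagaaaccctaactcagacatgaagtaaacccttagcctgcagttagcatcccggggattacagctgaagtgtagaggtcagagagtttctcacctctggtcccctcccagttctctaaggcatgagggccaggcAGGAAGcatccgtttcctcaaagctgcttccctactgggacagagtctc
Emcn promoter, chr3:137340828-137341077: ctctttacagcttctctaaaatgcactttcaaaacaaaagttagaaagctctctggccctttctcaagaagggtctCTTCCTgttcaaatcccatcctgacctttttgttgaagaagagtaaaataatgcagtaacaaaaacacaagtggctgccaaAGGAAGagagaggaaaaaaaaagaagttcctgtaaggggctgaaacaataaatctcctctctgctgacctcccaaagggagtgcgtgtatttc
The Mcam window has a GC content of 73.6% with 25 CpG dinucleotides and 5 matches to GGGCGG, a motif that 32.7% of 32841 RefSeq promoter windows of this length hold on either strand. It holds no AGGAAG, which 29.5% of those windows hold, but it does hold 1 GGAA, as 93.5% of them do. The Robo4 window has a GC content of 49.6%, 2 CpG and 1 AGGAAG, which starts 49 bases before the start site. The Emcn window, with a GC content of 40.8% and 1 CpG, has 2 matches, which start 174 and 93 bases before it. Of the windows not shown, those of Egfl7 hold 3, 1 and 0 AGGAAG and those of Prox1 hold 0. The median window has a GC content of 52.4%, so the Mcam and Emcn windows lie on either side of it. Their transcripts, at 53.7% and 40.7%, lie on either side of 49.6%, the transcript median of the 10845 genes. The motifs were chosen after the sequences were seen, and a match describes letters only.

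The median of other endothelial genes was below that of the 9. Of 28 further genes of endothelial junctions, receptors and transcription factors, 8 were above 1 FPKM, 9 below and 11 not separated from it by limma, with a median of 1.17 FPKM. The highest were Cd34, a sialomucin also found on stromal and progenitor cells (6.00 ± 1.46 FPKM), Cd93, a receptor also found on myeloid cells (4.17 ± 0.929 FPKM), and Cdh5, the cadherin of endothelial junctions. Cdh5 was at 2.32, 4.74 and 4.92 FPKM in tumours 1, 2 and 3, the low value being that of tumour 1 as for most of the 9 genes. The lowest were the endothelial transcription factors Sox17 (0.169 ± 0.0552 FPKM) and Sox18 (0.254 ± 0.0792 FPKM). In this list 19 of 28 genes were lowest in tumour 1 and 18 of 28 passed the Q test, beside the 56.5% and 65.9% of all symbols. The summed level was 33.6, 52.5 and 49.5 FPKM in tumours 1, 2 and 3, beside 22.8, 38.1 and 37.1 FPKM for the 9 genes. After removal of both trends the sums were 37.5, 49.6 and 46.7 FPKM for the list and 29.2, 35.3 and 30.7 FPKM for the 9 genes. Tumour 1 remained the lowest in both sums, but only 4 of the 9 genes were then lowest in tumour 1. The sums were not tested.

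Genes of arteries, veins and activated or sprouting vessels were above 1 FPKM in 8 of 17 cases, below in 6 and not separated in 3. The highest were the Notch target Hey1 (84.1 ± 24.2 FPKM), the venous ephrin receptor Ephb4 (15.5 ± 3.74 FPKM) and the adhesion molecule Vcam1 (4.91 ± 0.333 FPKM), of which Hey1 and Ephb4 are also known in epithelium. The lowest were the venular receptor gene Ackr1, listed as Darc (0, 0 and 0.166 FPKM in tumours 1, 2 and 3), and the inflammatory selectin Sele (0.0586 ± 0.0389 FPKM). Hey1 and Ephb4 exceeded every one of the 9 genes in the mean.

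Beside Prox1, the lymphatic list held 6 measured genes, of which 2 were above 1 FPKM, 3 below and 1 not separated. Nrp2 (3.11 ± 1.05 FPKM) and Pdpn (2.46 ± 0.0756 FPKM), which fibroblasts and epithelial cells also express, led it, followed by the hyaluronan receptor Lyve1 at 1.03, 0.705 and 1.36 FPKM, which macrophages also carry. The lowest were Mmrn1, listed at 0, 0 and 0.0322 FPKM, and Reln, at 0, 0.0215 and 0.0193 FPKM. Flt4, the receptor of lymphatic growth factors, which some blood vessels also carry, was at 0.205, 0.532 and 0.366 FPKM, below 1 FPKM but above Prox1, Mmrn1 and Reln in every tumour.

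Markers of other cells that express some of the 9 genes were also measured. Mural cell genes, of the pericytes and smooth muscle that wrap vessels and carry Mcam, were above 1 FPKM in 6 of 13 cases and below in 2. Tagln (42.3 ± 23.0 FPKM) and Acta2 (32.9 ± 12.7 FPKM), contractile genes that myofibroblasts also express, were highest, followed by the pericyte gene Rgs5 (5.48 ± 2.07 FPKM), and Cspg4 and Ndufa4l2 were lowest (0.418 ± 0.215 and 0.502 ± 0.215 FPKM). Their summed level was 54.3, 128 and 105 FPKM in tumours 1, 2 and 3, the same order as Mcam, and no gene of the list was at 0. That order was not particular to mural genes. The fibroblast list summed to 177, 298 and 263 FPKM and the epithelial list to 942, 1309 and 1233 FPKM in tumours 1, 2 and 3. Tagln and Acta2 made up most of the mural sum. Of the 13 genes, 2 were highest in tumour 1, 6 in tumour 2 and 5 in tumour 3. After trend removal the sum was 64.6, 118 and 90.2 FPKM. Rgs5 ran otherwise, at 7.59, 5.41 and 3.45 FPKM, but with the trends removed it came to 4.99, 5.69 and 4.95 FPKM, so that tumour 1 was no longer the highest. The part of mural cells in the Mcam values was not tested.

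Leukocyte genes, of cells that share Pecam1, were above 1 FPKM in 10 of 10 cases. The complement genes C1qa (111 ± 60.4 FPKM) and C1qb (45.3 ± 22.0 FPKM) and the macrophage receptor Csf1r (15.5 ± 7.54 FPKM) led, and the lowest were Itgam (5.51 ± 2.20 FPKM) and the pan-leukocyte gene Ptprc. Their sum was 116, 235 and 338 FPKM in tumours 1, 2 and 3, with tumour 3 highest, whereas Pecam1 was highest in tumour 2. After trend removal the sum was 154, 216 and 273 FPKM. Ptprc was at 6.07, 3.51 and 4.44 FPKM, with tumour 1 highest, but at 3.42, 3.94 and 6.92 FPKM with the trends removed, with tumour 1 lowest. The part of leukocytes in the Pecam1 values was not tested.

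Platelet and megakaryocyte genes, of cells that share Vwf, Pecam1 and Esam, were low: 6 of 9 were below 1 FPKM, Pf4 and Itga2b were not separated from it, and the collagen receptor Gp6 was listed at 0 in all 3 tumours. Their summed level was 2.01, 4.57 and 7.09 FPKM in tumours 1, 2 and 3, and Gp9, the lowest gene above 0, was listed at 0, 0 and 0.104 FPKM. Trend removal gave a sum of 2.72, 4.17 and 6.09 FPKM. The rise of both sums over the tumours lay mostly in Pf4, which came to 0.683, 2.84 and 4.41 FPKM after trend removal. Pf4, a platelet chemokine that some macrophages also express, was at 0.529, 3.12 and 5.19 FPKM, the same order over tumours as Vwf. Ppbp, another platelet chemokine, was listed at 0, 0.121 and 0.325 FPKM, also in that order. Itga2b, the platelet integrin, was at 0.641, 0.458 and 0.696 FPKM, and Gp1ba, a subunit of the platelet receptor for von Willebrand factor, at 0.471, 0.447 and 0.489 FPKM, neither in that order. The part of platelets in the Vwf values was not tested.

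The medians of the epithelial and fibroblast lists were above that of the 9 endothelial genes. All 7 epithelial genes exceeded 1 FPKM, as the label of a mammary tumour would have it, and their median was 147 FPKM, with Krt18 at 526 ± 143 FPKM and Cldn4 lowest at 5.53 ± 2.14 FPKM. Of 8 fibroblast genes 7 exceeded it, the median being 10.0 FPKM, led by Col3a1 at 98.9 ± 35.6 FPKM and with Fap lowest at 1.49 ± 0.730 FPKM. Mcam, the highest of the 9 endothelial genes, was below the medians of both lists.

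**Figure D4:**
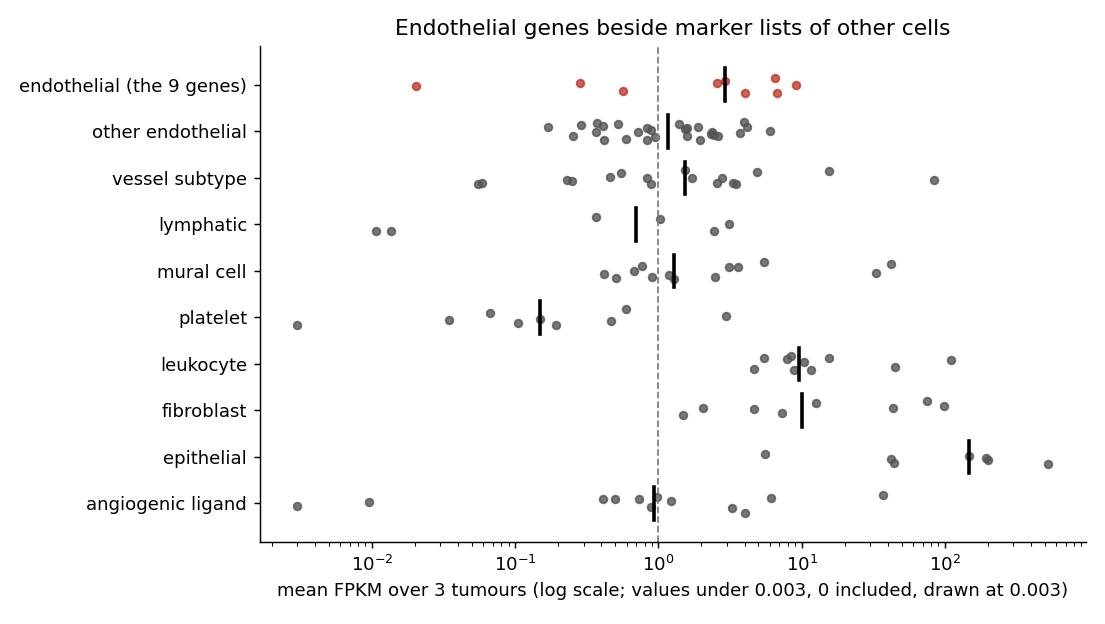
Mean FPKM over the 3 tumours (log axis) of each gene in the marker lists, with the 9 endothelial genes in red and the median of each list as a vertical bar; the dashed line is at 1 FPKM and vertical scatter within a list has no meaning. The median of the 9 genes, 2.91 FPKM, lies above that of the platelet list and below those of the leukocyte, fibroblast and epithelial lists.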

How the data were processed

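Total RNA of 3 tumours was depleted of ribosomal RNA and made into directional, randomly primed libraries, per the labels' protocols. Per the file headers, the authors deposited an FPKM value per gene, its interval bounds and a status. TopHat, Cufflinks and mm9 are named in the submitters' processing notes, and the versions, the annotation and any strand option were not given there. Values of overlapping genes are therefore uncertain. Tumours were numbered in accession order. Each held 22310 rows, and rows of 221 repeated symbols were summed. The deposited half-width was taken as 2 standard errors, which implied 11698588 to 13377729 fragments a tumour and, at the median row, a limit of 0.0395 to 0.0437 FPKM for a count of 0 (3 fragments). Of rows with under 60 implied fragments, 70.5% to 72.5% were within 0.02 of a whole number, so no count test was run. Loci under 300 bp held 28.6% to 36.7% of all FPKM. Intervals and limits cover counting error only.

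Levels were tested on log2((FPKM + 0.1)/(1 + 0.1)) with limma 3.58.1 in R 4.3.3 (intercept only, trend, robust) over 18028 symbols with status OK and a value above 0. Differences between tumours were tested with Cochran's Q (2 degrees of freedom). GC content and length came from the longest GENCODE vM21 transcript of each name (98.2% of symbols matched, 1903 by a synonym), and lowess (span 0.3) was used to remove their trends. Named genes are the 9 members, the 3 highest and 2 lowest of each list, the 5 most like the members over tumours and overlapping rows; others were chosen after their values were seen. The members and lists were chosen with earlier results of these data known, and 1 gene of the platelet list is not reported here. Alternatives were 2 other pseudocounts, 3 scalings, trend removal, filters, limma without moderation trend, other Q settings and leaving out each tumour.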

Additional observations from a re-analysis of the deposited data

How the results depend on the processing

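No paired comparison of tumour groups was possible because there is only 1 group and the tumours carry no replicate numbers in the labels. Differences between genes were paired within a tumour. The counts of 6 members above and 3 below 1 FPKM held under both other pseudocounts, the 3 scalings, trend removal and limma without trend and robust moderation. Leaving out 1 tumour gave 5 to 6 above and 2 to 3 below, and keeping symbols with a mean of at least 0.5 FPKM gave 0 below, because that filter left Vwf and Prox1 out and Robo4 then had an adjusted p of 0.062. Of 97 level values under alternatives 4 lost their call, 3 of Robo4 and 1 of Emcn, and none reversed. The count of 8 members that differed between tumours stood beside 65.9% of all symbols. It became 5 (52.6% of all symbols) with median-of-ratios scaling and 5 (52.6%) with the same FPKM total over loci of at least 300 bp. With a ratio of at least 2 it was 5 (35.7%), and with trends removed 3 (41.7%). Without tumours 1, 2 and 3 in turn it was 2, 7 and 6, beside 22.4%, 58.6% and 40.5% of all symbols. The count of genes highest in tumour 1 went from 0 to 1 with trends removed and was 0 to 2 with another tumour left out. For tumour 2 (5 genes, Prox1 included) it was then 5 to 9, and for tumour 3 (4 genes) 4 to 7, since fewer tumours compete for the highest value. The 6 neighbour pairs with one direction became 6 to 8. The mean of Vwf went from 0.285 to 0.165 FPKM without tumour 3, and that of Prox1 from 0.0204 to 0.0127 FPKM without tumour 2. Depth limited Prox1 most, with 1 to 4 implied fragments.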

Other observations

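Ligands of endothelial receptors were also measured. Of 12 vascular growth and guidance ligands, 4 were above 1 FPKM and 3 below by limma. The highest was Pgf, placental growth factor, at 26.6, 51.4 and 32.4 FPKM in tumours 1, 2 and 3, above all 9 endothelial genes in each tumour. Vegfa, the main endothelial growth factor, was at 4.69, 8.70 and 5.07 FPKM, and Vegfb at 4.13, 3.36 and 4.53 FPKM. Pgf and Vegfa were both highest in tumour 2, as were Mcam, Pecam1, Emcn, Robo4 and Prox1. Plvap, Egfl7, Esam and Vwf were highest in tumour 3. Of the 10 ligands that averaged 0.1 FPKM or more, 1 was highest in tumour 1, 4 in tumour 2 and 5 in tumour 3. The shares of all symbols highest in tumours 1, 2 and 3 were 28.8%, 24.9% and 46.3%. The lowest were Gdf2, listed at 0 in all tumours, and Bmp10, listed at 0, 0 and 0.0284 FPKM, both known from the circulation.

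The 5 genes whose values over the tumours were closest to the mean profile of the 6 members above 1 FPKM were Mrps16, Srpr, Gpn3, Dpf2 and Ankrd46, at Euclidean distances of 0.006 to 0.016 on the centred log2 scale over 3 tumours. Mrps16 encodes a mitochondrial ribosomal protein and Srpr the receptor of the signal recognition particle. Of 6474 genes that averaged 5 FPKM or more, 22.9% lay within 0.25 of that profile. With GC and length trends removed the 5 closest were other genes, Fat1, Fam195b, Atp2c1, Bmp1 and Slc37a3, and 27.0% lay within 0.25. Among the 6 before removal, Pecam1 lay at 0.10 and Emcn at 1.02.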
